A study of Mus musculus with 6 samples.

Results

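The replication-dependent histone genes are the clustered genes that supply the histone proteins of newly made chromatin. They were taken from the deposited tables as every gene whose name starts with Hist1h, Hist2h, Hist3h or Hist4h, leaving out names that hold "-ps" (1 gene). This gave 69 of 49671 genes: 6 of linker histone H1, 20 of H2A, 18 of H2B, 12 of H3 and 13 of H4. The largest cluster, Hist1, holds 56 of them on mouse chromosome 13, Hist2 holds 10 on chromosome 3, Hist3 holds 2 on chromosome 11 and Hist4 holds 1 on chromosome 6 (mm10 build, GENCODE M21). The members Hist1h2aj and Hist1h2al, which the name rule takes in, are pseudogenes in that annotation, and Hist1h2al lies apart from the cluster, at chr13:51202727-51203065.

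RNA came from splenic CD3+ T cells of female F1 mice with C57BL/6 (mus) mothers heterozygous for an Xist deletion and M. m. castaneus (cast) fathers, so both groups share that hybrid background. Unstimulated cells were collected on day 0, straight after CD3+ enrichment columns. Stimulated cells were collected on day 2, after 48 h in wells coated with an antibody to CD3 (1 µg/ml) and with an antibody to CD28 in the medium (10 µg/ml). Each group has 3 biological replicates. The libraries were made from total RNA after removal of ribosomal RNA, without selection for a poly(A) tail. The study's title concerns Xist RNA and X inactivation after T cell activation, and these genes are all autosomal.

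Most histone genes are read during S phase, when the cell copies its DNA and needs equal masses of new histone. Their messages carry no introns and, as a rule, no poly(A) tail. They end instead just after a short stem-loop, which is bound by Slbp, the stem-loop binding protein, and is cut by a complex guided by U7 RNA. H2A, H2B, H3 and H4 form the core particle around which DNA is wound, and H1 binds the DNA between particles. A resting T cell does not copy its DNA, and ligation of its receptor with a CD28 signal brings it into the cell cycle.

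The stem-loop was looked for in the annotated transcripts to show what these messages share. It was searched as a 6-base stem that starts with GG, a 4-base loop of 3 T and 1 T or C, and the reverse complement of the stem, on the sense strand after the stop codon. It was found in 38 of the 52 members whose model has 16 or more bases of 3′ UTR, and the stem started at a median of base 32 after the stop codon (22 to 59). There were 5 forms of it. The commonest form, shown for Hist3h2a and Hist1h1c, was that of 26 members and of every H1, H2B and H3 gene with a match. The H4 genes used 3 other forms, of which the one shown for Hist4h4 was in 7 genes and those shown for Hist2h4 and Hist1h4b were in 2 genes each, and Hist2h2ac alone had the last. Each is printed 5′ to 3′ with DNA letters, the stem-loop in capitals and 5 bases on either side.
Hist3h2a (H2A, chr11:58955172-58955187, plus strand): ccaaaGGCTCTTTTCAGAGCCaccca
Hist1h1c (H1, chr13:23739512-23739527, plus strand): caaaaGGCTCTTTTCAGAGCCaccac
Hist4h4 (H4, chr6:136803998-136804013, minus strand): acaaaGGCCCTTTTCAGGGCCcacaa
Hist2h4 (H4, chr3:96262939-96262954, minus strand): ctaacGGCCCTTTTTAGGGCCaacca
Hist1h4b (H4, chr13:23757366-23757381, plus strand): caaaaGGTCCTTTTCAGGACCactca
Hist2h2ac (H2A, chr3:96220418-96220433, minus strand): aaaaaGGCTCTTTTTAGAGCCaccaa

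Promoters of 62 of the 69 members were matched in the RefSeq table (GRCm38.p6, windows from 250 bases before to 50 bases after the start). Letters were searched on both strands, and the motifs do not overlap each other's letters. The TATA box letters TATAAA were in 35 of the 62 windows (56.5%), against 15.7% of the windows of 27025 genes. The letters CCAAT were in 53 (85.5%), against 41.1% of all genes. CCAAT was in every matched H1, H2A, H2B and H3 window but in 3 of 12 H4 windows. The octamer ATGCAAAT was in 14 windows (22.6%, against 2.0% of all genes), 7 of 18 H2A and 7 of 16 H2B, and in none of the 28 H1, H3 and H4 windows. Windows of head-to-head partners overlap, so with both strands searched 1 site can count for 2 members. The octamer is the same site in Hist1h2ah and Hist1h2bk, in Hist1h2ae and Hist1h2bg, and in Hist1h2aa and Hist1h2ba. The counts are thus of windows and not of separate sites. A match is a run of letters and shows no binding. The 250 bases before the start are printed for 5 genes on which the results turn: the largest rise (Hist1h2bk), an H4 gene without CCAAT whose alleles were unequal (Hist1h4f), an H2B gene that shares its upstream bases with the H2A gene Hist1h2ak (Hist1h2bn), the linker gene whose alleles changed most (Hist1h1a) and the gene that fell most (Hist3h2a). Capitals mark the motifs on either strand. The TATAAA of Hist1h1a starts 33 bases before the start of the gene, and that of Hist1h4f 250 bases before it. The TTTATA of Hist1h2bk and Hist1h2bn is TATAAA on the other strand, and it also lies in the windows of their partners Hist1h2ah and Hist1h2ak.
Hist1h2bk (chr13:22035571-22035820, plus strand): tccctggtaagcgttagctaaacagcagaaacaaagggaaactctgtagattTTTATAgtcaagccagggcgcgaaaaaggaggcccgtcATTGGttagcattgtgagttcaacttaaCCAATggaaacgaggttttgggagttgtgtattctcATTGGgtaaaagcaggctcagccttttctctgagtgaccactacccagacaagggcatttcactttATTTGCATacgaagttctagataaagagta
Hist1h4f (chr13:23551669-23551918, minus strand): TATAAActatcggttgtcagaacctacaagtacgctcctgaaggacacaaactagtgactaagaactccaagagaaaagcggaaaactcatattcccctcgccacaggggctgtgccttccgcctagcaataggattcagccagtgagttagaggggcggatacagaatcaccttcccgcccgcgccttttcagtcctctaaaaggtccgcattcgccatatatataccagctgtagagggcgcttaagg
Hist1h2bn (chr13:21753826-21754075, plus strand): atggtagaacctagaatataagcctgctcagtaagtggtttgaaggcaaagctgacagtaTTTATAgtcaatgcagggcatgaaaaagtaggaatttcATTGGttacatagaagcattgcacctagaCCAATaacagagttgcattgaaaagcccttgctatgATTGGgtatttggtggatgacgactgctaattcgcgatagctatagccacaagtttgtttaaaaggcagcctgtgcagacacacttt
Hist1h1a (chr13:23763418-23763667, plus strand): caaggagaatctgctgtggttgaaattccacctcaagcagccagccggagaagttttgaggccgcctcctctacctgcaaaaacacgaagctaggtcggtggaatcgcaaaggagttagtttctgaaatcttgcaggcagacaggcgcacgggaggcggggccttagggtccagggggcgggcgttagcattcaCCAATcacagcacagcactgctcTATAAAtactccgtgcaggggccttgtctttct
Hist3h2a (chr11:58954435-58954684, plus strand): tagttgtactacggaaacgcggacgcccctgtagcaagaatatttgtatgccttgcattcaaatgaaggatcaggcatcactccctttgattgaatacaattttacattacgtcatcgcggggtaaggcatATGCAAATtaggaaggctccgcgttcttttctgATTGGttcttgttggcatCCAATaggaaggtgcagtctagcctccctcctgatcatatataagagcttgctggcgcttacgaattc

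Members resemble each other closely, which bears on every count below. The 13 H4 genes encode 1 protein and the 12 H3 genes encode 3 proteins, whereas the 6 H1 genes encode 6. Of the 75-base stretches of a member's transcript, a median of 45.7% occurred word for word in a transcript of another gene. The class medians were 0.75% for H1, 71.6% for H2A, 42.2% for H2B, 59% for H3 and 24.6% for H4. This counts gene models that overlap the member at its own place, on either strand, as well as copies. Without overlapping models the median was 38.5%, and 15 members had a lower share. Reads from shared stretches cannot be placed on 1 gene, and the sources used here name neither the read length nor how the authors handled such reads. Values of single H2A, H2B, H3 and H4 genes are therefore uncertain to that degree. Hist2h2aa2 (100% shared) cannot be told by such stretches from its copy Hist2h2aa1, which was listed at an RPKM between 0 and 0.0375. The model of Hist2h2aa1 also overlaps that of Gm20634 on the same strand. The part of shared reads or of this overlap in its low value was not tested.

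Allele-assigned reads numbered 9606755 to 20249376 per library, of which the members took 0.231% to 0.55% unstimulated and 1.46% to 1.77% stimulated. Marker genes of T cells were high in both groups, with a summed RPKM of 883 to 1070 unstimulated and 981 to 1060 stimulated. Single T cell markers differed in direction in the limma test, with 2 of 11 called higher and 4 lower (31.2% and 48.9% of all genes). Cd2 (log2 fold change 0.84) and Cd5 (0.78) were higher, and Cd3g (-1.20), Cd3e (-0.89), Cd4 (-0.55) and Cd8a (-0.41) lower. All 4 lists of other blood cell markers were present in the unstimulated libraries and had lower sums after stimulation: B and plasma cells 305 to 471 against 64.9 to 80.4, myeloid cells 1110 to 3350 against 1.31 to 3.19, NK cells 244 to 343 against 10.2 to 15.1, and erythroid cells with platelets 105 to 1450 against 2.95 to 16.2. Not every marker fell. By the limma test described below, 9 of 11 B and plasma cell markers and 8 of 10 erythroid and platelet markers were called lower (48.9% of all genes). Xbp1 was called higher (log2 fold change 1.03) and Sdc1 was not called (-0.11). Epor (-1.18) and the platelet marker Pf4 (-0.06) were not called either. In whole-population RNA, fewer cells of a type and less RNA per cell cannot be told apart. The part of these other cells in the results below was not tested.

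One unstimulated library stood apart for these genes, and each result below is given with that in view. In unstimulated replicate 3 the summed RPKM (reads scaled to gene length and to library size) of the 69 members was 8073, against 3121 and 3030 in replicates 1 and 2. In 64 of the 65 members tested replicate 3 was the highest of the unstimulated libraries, with a median ratio of 2.71 to the mean of the other 2. On the log2(RPKM + 1) scale, 49 of 65 members (75.4%) were more than 2-fold higher there, against 2.93% of the 13288 genes tested. The same library was above the others in the summed RPKM of G2 and mitosis genes (4.17 times the mean of the other 2), S phase genes (1.86 times), myeloid markers (2.59 times), erythroid and platelet markers (3.01 times), B and plasma cell markers (1.46 times) and NK cell markers (1.29 times), and below them in T cell markers (0.843 times). The erythroid and platelet sums were 105, 856 and 1449 in replicates 1 to 3, so replicates 1 and 2 also differed widely in that list. The part of these cells and cell cycle genes in the histone levels of replicate 3 was not tested.

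After stimulation, histone RNA was higher in all 5 classes. The summed RPKM of the 69 members was 23970, 22730 and 20580 in the stimulated libraries, so that the groups did not overlap. The means were 4741 ± 2886 (SD, n = 3) unstimulated and 22430 ± 1720 stimulated, a 4.73-fold difference, or 7.29-fold without unstimulated replicate 3. The folds of the class sums were 3.73 for H1, 4.29 for H2A, 4.65 for H2B, 6.02 for H3 and 4.61 for H4. Differences between classes were not tested, since members are not replicates. Ranks of members by RPKM, here and below, rest on the gene lengths used, which these sources do not name. Annotated models differ widely, with a 3′ UTR of 37 bases for Hist2h3b and 4931 for Hist1h1d.

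Each gene that reached an RPKM of 1 in at least 3 libraries was tested with limma on the log2(RPKM + 1) scale, and p-values were adjusted by the Benjamini-Hochberg method over the whole table. Of the 65 members tested, 59 rose (90.8%), 2 fell and 4 did not pass the threshold of 0.05. Among all 13288 genes the shares were 31.2% higher and 48.9% lower. With the libraries centred on their medians, the median log2 fold change of all genes went from -0.24 to 0.0176. The shares of all genes were then 40.9% and 39.2%, and 63 members were called higher and 2 lower. With quantile normalisation they were 40.6% and 36.7%, and 62 members were called higher and 1 lower. Values of the 2 groups did not overlap in the 59 members that were higher throughout and in the 2 that were lower throughout, against 32.7% and 50.7% of all genes. The median log2 fold change was 2.25 over the members and -0.24 over all genes. On allele-assigned counts, edgeR called 57 of 61 members higher and 1 lower, against 35.8% and 38.5% of 14916 genes.

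**Figure D1:**
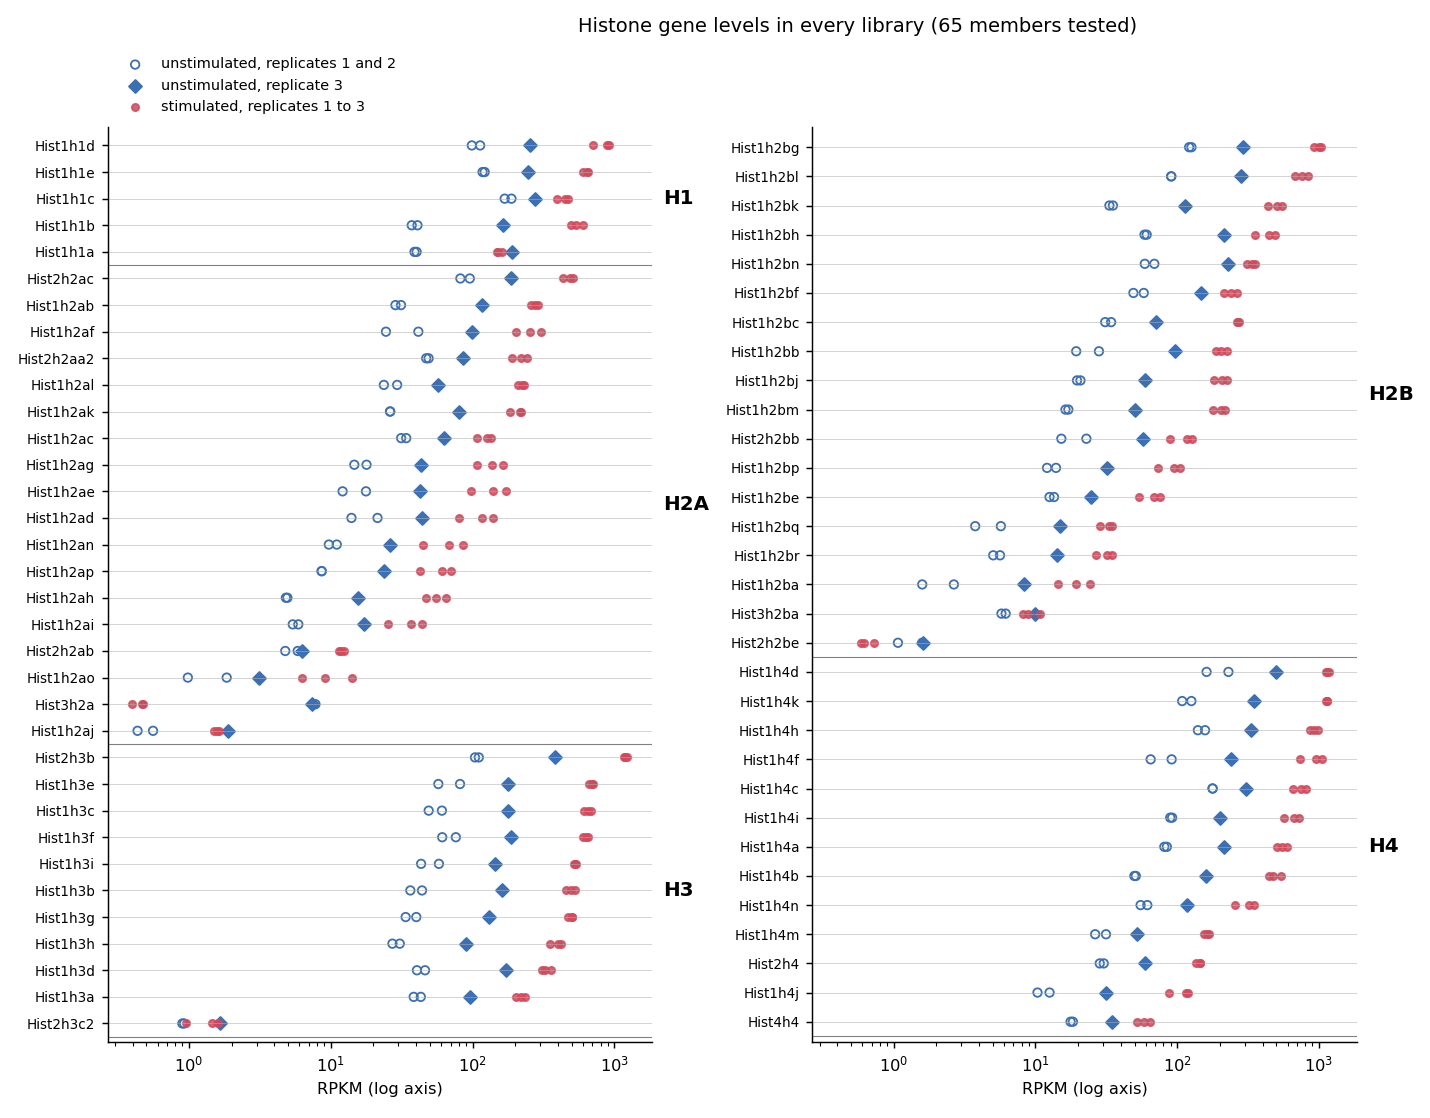
RPKM (log axis) of each of the 65 members tested, in rows by class and ordered by mean level, with 1 point per library. Open circles are unstimulated replicates 1 and 2, blue diamonds unstimulated replicate 3 and red points the 3 stimulated libraries. The diamonds lie between the circles and the red points in most rows, above the red points for Hist1h1a, Hist1h2aj and Hist2h3c2, and among them for Hist3h2ba, and the red points lie below all blue ones for Hist3h2a and Hist2h2be.

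As a class, the linker histones shared the fewest 75-base stretches with other genes. Hist1h1d was at 113, 98.9 and 253 RPKM in the unstimulated libraries and at 923, 886 and 708 in the stimulated ones (log2 fold change 2.55 ± 0.35 SE, adjusted p = 0.000477 by limma). Hist1h1e, whose model overlaps those of Hist1h2be and Gm11398 on the same strand (28.4% of its stretches shared, 5.7% with genes elsewhere), went from 118, 122 and 247 RPKM to 654, 645 and 600 (2.04 ± 0.28, adjusted p = 0.000486). Hist1h1b shared no 75-base stretch with another gene and had the largest rise of the class: 40.9, 37.3 and 164 RPKM against 600, 539 and 494, or 6.76-fold. Replicate 3 was 4.19 times the other unstimulated libraries, and the stimulated mean was 3.33 times replicate 3, so that the groups did not overlap.

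Hist1h1c had the highest RPKM of the linker histones before stimulation and the smallest rise of those that passed the test. It was at 188, 169 and 276 RPKM unstimulated and at 474, 446 and 392 stimulated (2.07-fold, log2 fold change 1.08 ± 0.19, adjusted p = 0.00162 by limma). Within the summed RPKM of the 6 H1 genes it made up 37.6%, 36.2% and 24.4% of the unstimulated libraries and 16.9%, 16.7% and 16.7% of the stimulated ones. The share of Hist1h1b was 8.16%, 8.0% and 14.5% before and 21.4%, 20.2% and 21.1% after. The groups did not overlap in either share, and with 3 libraries a group an exact permutation test cannot go below 0.10, so these shares are given as a description. They also rest on gene lengths that the authors used and that these sources do not name.

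Hist1h1a was the 1 somatic H1 gene whose level did not pass the test. Its unstimulated values were 40.3, 39.0 and 190 RPKM and its stimulated values 160, 151 and 148, so that all stimulated libraries lay above replicates 1 and 2 and below replicate 3. The log2 fold change was 1.18 ± 0.59 (adjusted p = 0.103 by limma). Without unstimulated replicate 3 it was 1.92 (adjusted p = 2.1e-06), and with median centring 1.44 (adjusted p = 0.0442). Its ratio of replicate 3 to replicates 1 and 2, 4.79, was the highest of the 65 members. Hist1h1t, a testis linker histone, was at 0.304 to 0.879 RPKM in all 6 libraries and was not tested.

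**Figure D2:**
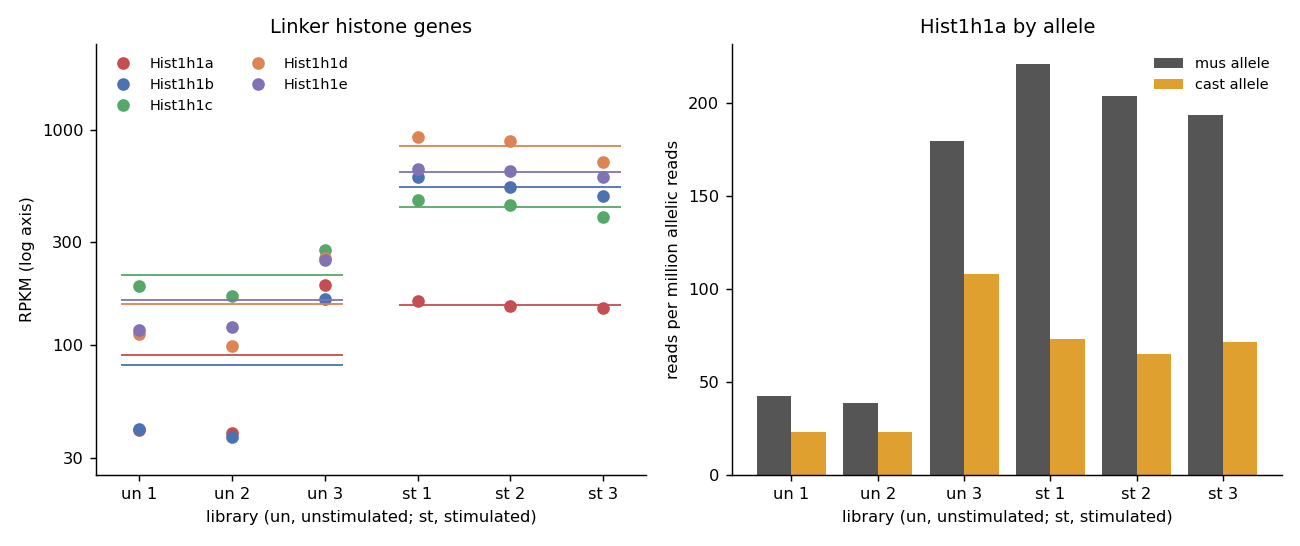
Left, RPKM (log axis) of 5 linker histone genes in each library, with lines at the group means. Right, reads of Hist1h1a assigned to each allele, scaled to the library's allelic reads (reads per M). Hist1h1a is highest in unstimulated replicate 3 on the left, and on the right the cast bar falls from 108 in that library to 65.1 to 73.3 in the stimulated ones, while the mus bars of the stimulated libraries are the highest.

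Of the 20 H2A genes, 18 were tested: 16 rose, 1 fell and 1 did not pass, with a median log2 fold change of 2.12. All 20 overlap a gene model on the opposite strand. The strand setting of the counting is not named, and the part of this overlap in H2A values was not tested. Hist2h2ac, with the highest H2A RPKM, was at 95.7, 82.1 and 186 RPKM unstimulated and at 508, 487 and 438 stimulated (3.94-fold). Hist1h2ab went from 28.6, 31.3 and 117 RPKM to 289, 276 and 259 (4.67-fold), and its groups did not overlap. Hist1h2af went from 41.5, 24.5 and 98.6 RPKM to 303, 253 and 203 (4.61-fold), with 86.8% of its stretches shared (70.5% with genes elsewhere). Hist2h2aa2 had 47.1, 49.0 and 85.5 RPKM before and 242, 220 and 190 after (3.59-fold). All 4 rose by limma, with adjusted p-values of 0.000563, 0.00325, 0.00281 and 0.000308. The smallest rise was that of Hist2h2ab, from 5.64 ± 0.78 to 11.9 ± 0.50 RPKM (SD, n = 3).

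Hist3h2a went the other way, and further than any other member. It was at 7.43, 7.80 and 7.35 RPKM in the unstimulated libraries and at 0.399, 0.465 and 0.474 in the stimulated ones, 0.0593 times the level before. Replicate 3 did not stand apart here (0.965 times the other 2). The log2 fold change was -2.56 ± 0.07 (adjusted p = 9.24e-07 by limma), and it ran from -2.06 with quantile normalisation to -3.81 with a pseudocount of 0.1, below the threshold each time. The gene lies at chr11:58954685-58956830 on the plus strand and its annotated 3′ UTR is 1700 bases long, with the stem-loop printed above starting at base 42 after the stop codon. Its model overlaps that of Trim17 on the same strand, which was listed at 0 to 0.0534 RPKM in the 6 libraries, and that of Gm44313 on the opposite strand, listed at 0 to 0.723. Whether the counting used strand is not stated in these sources. Its 766 unstimulated and 86 stimulated allelic reads gave cast shares of 44.4% and 38.2%, with no test passed. Its promoter letters hold CCAAT and the octamer, as do those of Hist1h2bk, which had the largest rise.

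Among the H2B genes all 18 were tested, of which 16 rose, 1 fell and 1 did not pass (median log2 fold change 2.18). Hist1h2bk had the largest rise of all 69 members: 35.2, 33.3 and 114 RPKM before and 547, 506 and 438 after, 8.18-fold (log2 3.25 ± 0.45, adjusted p = 0.000538 by limma). Hist1h2bg had the highest RPKM of the H2B genes, with 126, 121 and 291 unstimulated and 1026, 1001 and 924 stimulated (5.49-fold). Hist1h2bl followed at 90.6, 90.9 and 284 against 830, 762 and 673 RPKM (4.87-fold). These genes encode very similar proteins, and 72.6% of the stretches of Hist1h2bk and 73.3% of those of Hist1h2bl are shared. Hist1h2bh went from 58.8, 60.9 and 215 RPKM to 487, 441 and 353 (3.83-fold), with 12.5% shared. Hist1h2bm, also among the 6 largest rises, went from 17.1, 16.3 and 50.3 RPKM to 217, 202 and 180 (7.17-fold, adjusted p = 0.000482).

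Hist2h2be was the H2B gene that fell, at a low level. Its values were 1.07, 1.59 and 1.61 RPKM unstimulated and 0.721, 0.620 and 0.589 stimulated, groups that do not overlap. The stimulated mean was 0.452 times the unstimulated one. On the log2(RPKM + 1) scale, where the added 1 shrinks changes at such levels, the log2 fold change was -0.55 ± 0.12 (adjusted p = 0.00388 by limma). The fall was not called on allele-assigned counts (log2 -0.59, adjusted p = 0.133 by edgeR, from 136 and 121 reads over the groups), and with quantile normalisation the sign turned (0.17, adjusted p = 0.222). Hist2h2be shares no 75-base stretch, has a 3′ UTR of 2192 bases, and lies head to head with Hist2h2ac, 239 bases apart, whose level rose. Hist3h2ba, the 1 H2B gene that did not pass, was at 6.17, 5.76 and 9.97 RPKM before and 8.80, 10.7 and 8.18 after, so that the groups overlapped.

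H3 had the highest median log2 fold change of the classes, 2.87, with 10 of 11 genes tested called higher. Hist2h3b reached the highest mean RPKM of any member in the stimulated cells: 104, 111 and 380 RPKM unstimulated and 1238, 1196 and 1177 stimulated (6.08-fold, adjusted p = 0.00128 by limma). Of its 75-base stretches, 78.5% also occur in Hist2h3c1, and the rest lie in the model of Gm20628 on the opposite strand of the same place, so its level cannot be fully told from theirs. Hist2h3c1 was listed at 0 in all 6 libraries and was not tested, and Hist2h3c2 had 0.898, 0.924 and 1.66 RPKM before and 1.47, 1.59 and 0.95 after (log2 0.12 ± 0.18, adjusted p = 0.551). Hist1h3e was at 81.6, 57.4 and 178 against 705, 701 and 659 RPKM (6.52-fold), and Hist1h3f at 76.3, 61.1 and 186 against 632, 650 and 597 (5.81-fold). Hist1h3c went from 60.8, 49.1 and 178 RPKM to 680, 655 and 613 (6.76-fold). Hist1h3h, with 30.7, 27.2 and 90.6 RPKM before and 418, 399 and 351 after (7.86-fold), and Hist1h3g, with 40.1, 33.8 and 130 before and 505, 505 and 472 after (7.27-fold), had the largest log2 rises of all members after Hist1h2bk. The stimulated libraries lay close together in this class, with a median ratio of highest to lowest of 1.11, against 1.34 in H2A.

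All 13 H4 genes rose, with log2 fold changes from 1.32 to 3.00 (median 2.25). Hist1h4d was at 161, 230 and 495 RPKM unstimulated and 1121, 1147 and 1184 stimulated (3.90-fold). Hist1h4k went from 108, 126 and 350 RPKM to 1138, 1135 and 1125 (5.82-fold), with its stimulated libraries almost level. Hist1h4h went from 157, 140 and 333 to 991, 924 and 863 (4.41-fold). These genes encode the same protein. Hist1h4f had the largest rise of the class, from 91.4, 64.98 and 239 RPKM to 1051, 948 and 740 (6.93-fold, adjusted p = 0.000819 by limma). Hist4h4, the single Hist4 gene, had the smallest, from 18.4, 17.7 and 34.7 RPKM to 64.0, 58.3 and 51.8 (2.46-fold, adjusted p = 0.00239).

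**Figure D3:**
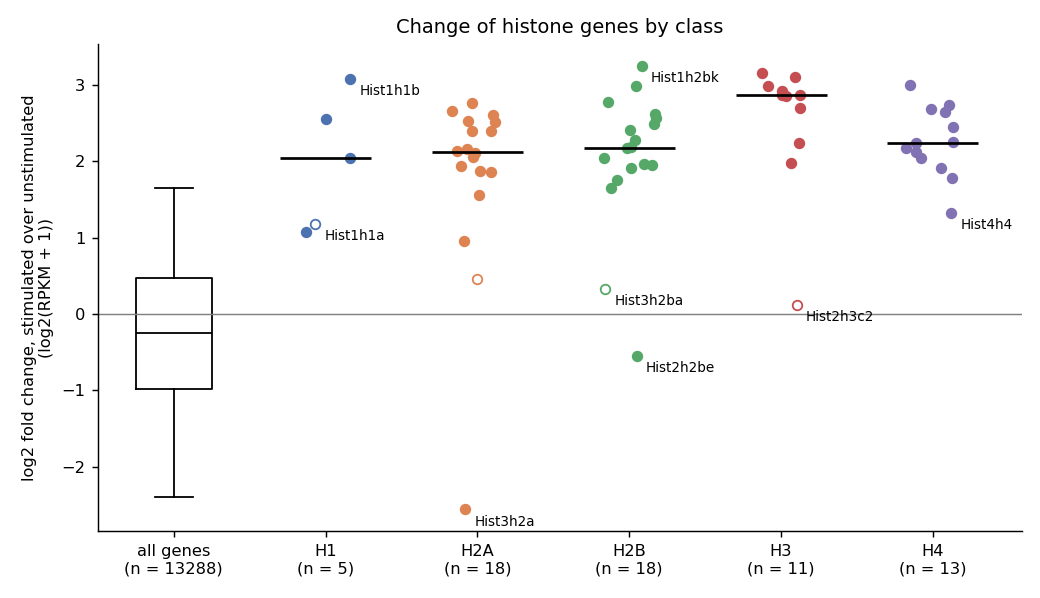
Log2 fold change (stimulated over unstimulated, on log2(RPKM + 1)) of each member tested, by class, with a line at the class median. Filled points passed the limma test at an adjusted p of 0.05 and open points did not. The box shows all 13288 genes (quartiles, whiskers at the 5th and 95th percentiles, median -0.24), and the class medians lie between 2.04 (H1) and 2.87 (H3), with Hist3h2a at -2.56.

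Long gene models went with several of the small changes. Of the 65 members tested, 16 have an annotated 3′ UTR of 500 bases or more. It runs on past a stem-loop in all of these except Hist2h2be, Hist1h2bq, Hist1h2br and Hist1h2bc, where no stem-loop was found. The median log2 fold change of the 16 was 1.93 (-2.56 to 2.63), against 2.41 (0.12 to 3.25) for the other 49. The 16 include both members that fell, Hist3h2a and Hist2h2be. On the log2(RPKM + 1) scale they also include 3 of the 4 smallest rises, those of Hist1h1c, Hist4h4 and Hist1h2ac (log2 1.56). The smallest on that scale, that of Hist2h2ab, was in a model with no 3′ UTR. The order depends on the scale. In ratios of mean RPKM, Hist1h1c (2.074-fold) rose less than Hist2h2ab (2.105-fold), and Hist1h2ac (2.871-fold) rose more than Hist1h2bf (2.811-fold), whose 3′ UTR is 74 bases long. The 16 also include Hist1h1d and Hist1h2bc (log2 2.63), whose rises were above the median of the others. The median log2 fold change was 2.17 for members with 50% or more shared stretches (n = 30) and 2.25 for those with less (n = 35). They were 2.28 for members with TATAAA in the promoter window (n = 33) and 2.13 without it (n = 25), and 2.41 with the octamer (n = 13) and 2.25 without (n = 45). The order was the other way for CCAAT, at 2.19 with it (n = 49) and 2.45 without (n = 9), and for the stem-loop, at 2.15 where found (n = 36) and 2.63 where a 3′ UTR of 16 or more bases held none (n = 13). These splits are descriptions and carry no test.

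Replicate 3 of the unstimulated group raised nearly every member but not in equal measure. Its ratio to replicates 1 and 2 ran from 0.965 for Hist3h2a to 4.79 for Hist1h1a, with medians of 2.39 for H1, 2.60 for H2A, 2.98 for H2B, 3.13 for H3 and 2.24 for H4. The stimulated mean was still above replicate 3 in most members, by a median of 2.57-fold. Leaving the library out, limma called 62 members higher and 2 lower (33.7% and 49.2% of all genes), and the median fold over replicates 1 and 2 was 6.97. The 3 members added were Hist1h1a, Hist3h2ba (log2 0.55, adjusted p = 0.00501) and Hist1h2aj (log2 0.78, adjusted p = 0.000221). Leaving out any of the other libraries gave 59 higher and 2 lower.

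**Figure D4:**
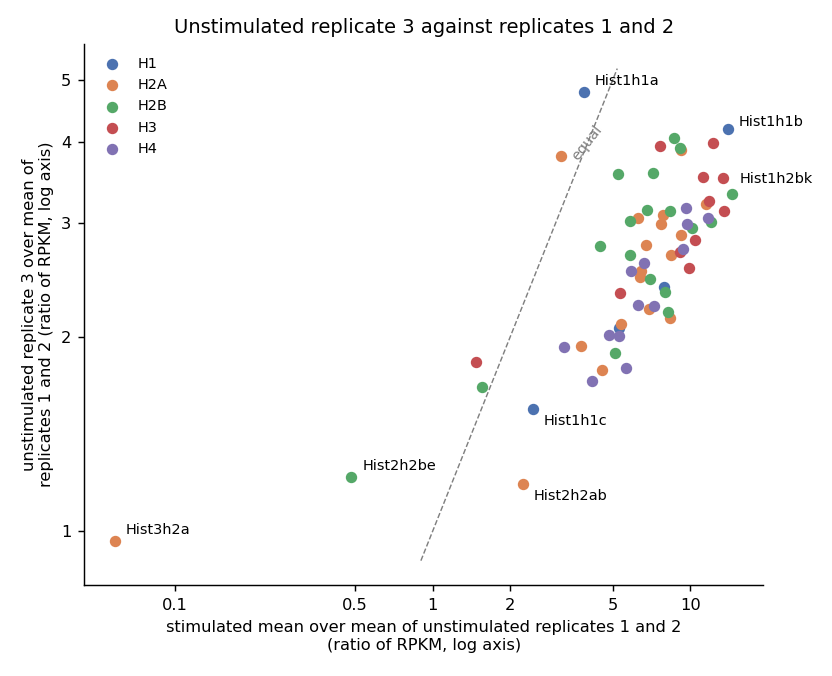
Each point is 1 member tested. The horizontal axis gives the stimulated mean, and the vertical axis unstimulated replicate 3, each as a ratio to the mean RPKM of unstimulated replicates 1 and 2 (log axes). The dashed line marks equal ratios. Hist1h1a lies left of it at a replicate 3 ratio of 4.79, Hist3h2a and Hist2h2be lie at the far left, and the main body of points lies right of the line.

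The machinery that makes and ends these messages moved less than the messages. Of 23 genes listed for it, 22 were tested, of which 16 were called higher and 2 lower (31.2% and 48.9% of all genes), and the median log2 fold change was 0.49. Slbp, whose protein binds the stem-loop, was at 7.63, 8.31 and 10.1 RPKM unstimulated and 13.6, 12.8 and 12.5 stimulated (log2 0.54 ± 0.10, adjusted p = 0.00233 by limma). Npat, the activator of histone genes at the histone locus body, was at 7.90, 9.67 and 10.4 against 15.97, 16.55 and 16.31 RPKM (0.75 ± 0.10, adjusted p = 0.000392). The groups did not overlap for either gene. The largest rises were those of Ccne1 (2.94, 2.89 and 8.62 RPKM against 22.1, 21.5 and 18.5), Ccne2 and Cdk2, which form the kinase that acts on Npat at the start of S phase, with log2 fold changes of 2.03, 1.76 and 1.35. The 2 that fell, Zcchc6 (log2 -1.14) and Zcchc11 (-0.80), encode enzymes that add uridines to RNA ends, an early step in histone message decay.

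Most carriers of the new proteins were called higher too. Among 24 histone chaperone and import genes, 17 were called higher, 4 lower and 3 did not pass (31.2% of all genes higher and 48.9% lower), and the median log2 fold change was 1.04. Chaf1a, a subunit of the complex that places new H3 and H4 on copied DNA, went from 3.87 ± 2.75 to 25.9 ± 0.63 RPKM (SD, n = 3; log2 2.60), Asf1b, an H3-H4 chaperone, from 4.33 ± 3.53 to 24.6 ± 1.00 (log2 2.47), and the importin Ipo5 from 26.1 ± 3.86 to 107 ± 3.12 (log2 2.00). The genes that fell most were Ubn1 (log2 -0.70), Atrx (-0.61) and Cabin1 (-0.47), which belong to the chaperone systems of the replacement histone H3.3. The fall of Cabin1 was not called on allele-assigned counts (log2 -0.02, adjusted p = 0.781 by edgeR).

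Histone genes outside the name pattern, most of which encode replacement variants with polyadenylated messages, split in direction. The list held 16 histone genes and Hmgb2, a high mobility group protein that is no histone, and 11 of the 17 were tested, of which 6 were called higher and 4 lower (31.2% and 48.9% of all genes). Without Hmgb2 (log2 1.15), a count added after the values were seen, 5 of 10 were called higher and 4 lower. H2afx, whose protein is phosphorylated at DNA breaks, was at 29.2, 26.7 and 72.2 RPKM unstimulated and 282, 277 and 278 stimulated (log2 2.83 ± 0.35, adjusted p = 0.000316 by limma). The linker variant H1f0 (log2 1.81) and the centromeric H3 Cenpa (log2 1.26) rose as well. The H3.3 gene H3f3b, with 153, 165 and 196 RPKM before and 92.6, 93.5 and 88.1 after, fell by 0.89 on the log2 scale (adjusted p = 0.000161), while every H3 member of the clusters that passed the test rose. H3f3a (log2 -0.36, adjusted p = 0.0405) and H3f3c (log2 -0.40, adjusted p = 0.0409) were close to the threshold, and with median centring neither was called (adjusted p = 0.382 and 0.354). On allele-assigned counts the log2 fold change of H3f3a was -2.58 by edgeR, much further from 0 than in RPKM, and the cause was not tested. S phase genes rose in 24 of 24 cases (median log2 2.05; Rrm2 3.27, Cdc45 3.02, Uhrf1 2.89) and G2 and mitosis genes in 20 of 20 (median 3.06; Aurkb 3.43, Cdc20 3.43, Top2a 3.36), against 31.2% of all genes.

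The hybrid cross allows the mus and cast copies of a member to be counted separately, by reads over base differences between the strains. The share of cast reads was tested with edgeR's quasi-likelihood test on the allele counts of 59 members with at least 30 such reads in each group, with p-values adjusted over 12470 autosomal genes. The 10 members not tested had few allelic reads, among them Hist1h2af, whose 13 unstimulated and 123 stimulated reads were all cast. Over the tested members the cast share ran from 6.50% to 100% unstimulated (median 54.0%) and from 8.88% to 100% stimulated (median 56.2%). Autosomal reads as a whole were 49.3% to 49.4% cast in the 6 libraries. A bias, meaning an adjusted p under 0.05 and a mean share outside 40% to 60%, was called in 31 members (52.5%) in each group, against 16.4% and 19.8% of autosomal genes. Such a call depends on read numbers. The members tested had a median of 1098 allelic reads over the unstimulated libraries and 8466 over the stimulated ones, and no comparison was made with genes of equal depth. A share under 10% or over 90% in both groups was found in 4 members, against 2.33% of autosomal genes. A bias was called in both groups in 28 members, toward cast in 18 and toward mus in 10. By class that was 1 of 5 H1, 9 of 14 H2A, 5 of 17 H2B, 5 of 10 H3 and 8 of 13 H4 genes. Of these 28, 10 were among the 26 tested members with 50% or more shared stretches and 18 among the 33 with less. Of the 8 tested members with under 10% shared stretches, 3 had a bias in both groups. Reads carried over from near-identical copies and reference mapping can shift such shares, and their part was not tested.

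The farthest departures from equal shares were in H2A and H2B genes and in Hist1h4f. Hist1h2al, annotated as a processed pseudogene, had 0 mus reads in every library, out of 204 to 548 allelic reads unstimulated and 3295 to 4820 stimulated, which allows a mus share of up to 1.47% and 0.091% in the least deep library of each group (counting error only). Its model overlaps that of Gm44341 on the opposite strand. Of its stretches, 45.7% are shared with genes elsewhere, and 43.4% occur in Hist2h2aa1, the copy of Hist2h2aa2. Hist1h2ad was 96.3%, 94.7% and 96.8% cast before and 91.9%, 96.6% and 91.5% after, and Hist1h2ah 100%, 88.9% and 91.4% before and 92.4%, 93.7% and 92.6% after. Hist2h2aa2, whose stretches all occur in its copy Hist2h2aa1 as well, was 90.2% ± 1.91 and 89.2% ± 1.32 cast (SD, n = 3). At the other end, Hist1h2ak was 5.04%, 7.66% and 6.80% cast unstimulated and 7.94%, 8.83% and 9.88% stimulated. Hist1h2bg was 13.1% ± 1.43 and 11.5% ± 1.99 cast, and Hist1h2bn 16.3% ± 1.48 and 16.3% ± 1.09. In each of these 7 genes the 2 groups differed by less than 3 percentage points.

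H2A and H2B genes often lie head to head, and 13 of the 14 pairs of members on opposite strands within 1000 bases were of that kind, at a median distance of 259.5 bases. Hist1h2ak and Hist1h2bn form such a pair, 296 bases apart across the promoter printed above, and both were mus-biased. Agreement between partners was not general. Hist1h2ah (92.9% cast after stimulation) lies 302 bases from Hist1h2bk (47.9%), and Hist1h2ad (93.3%) lies 185 bases from Hist1h2bf (57.2%). These 2 H2A genes resemble each other, so their shares cannot be taken as independent. Of the 75-base stretches of Hist1h2ah, 86.4% occur in Hist1h2ad, and 57.4% of those of Hist1h2ad occur in Hist1h2ah. The part of shared reads in these differences was not tested. Over the 11 pairs with both genes tested, the stimulated shares of partners differed by 2.00 to 45.0 percentage points, with a median of 8.50. The difference was under 10 points in 6 of the 11.

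Between the groups, the cast share changed in 6 of the 59 members (10.2%), a proportion near that of all autosomal genes (10.9%). It was lower after stimulation in 5 and higher in 1, against 4.96% and 5.95% of autosomal genes. Hist1h1a had the clearest change: 35.3%, 37.4% and 37.4% cast unstimulated and 24.9%, 24.2% and 26.9% stimulated, a fall of 11.4 percentage points (log2 change of the cast to mus ratio -0.78, adjusted p = 1.67e-05 by edgeR). The counts behind it were 593 to 3384 allelic reads unstimulated and 4381 to 5387 stimulated, and none of its stretches is shared with another gene. Unstimulated replicate 3 did not stand apart in this share, and without it the adjusted p was 0.000476. Scaled to 1 M allelic reads of each library, the mus allele was at 42.2, 38.6 and 180 unstimulated and 221, 204 and 194 stimulated, and the cast allele at 23.0, 23.1 and 108 against 73.3, 65.1 and 71.6. Thus the mus allele was higher in all stimulated libraries than in all unstimulated ones, and the cast allele was highest in unstimulated replicate 3.

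In the other 5 members both alleles were higher on average after stimulation, by different amounts. Hist1h3c went from 26.8%, 31.0% and 26.5% cast to 23.9%, 21.5% and 20.5% (adjusted p = 0.00306 by edgeR), with the mus allele 8.48-fold and the cast allele 6.38-fold higher on that scale. Hist1h2be went from 40.1%, 46.7% and 44.4% to 37.6%, 36.9% and 35.8% (adjusted p = 0.00359), and its gene model overlaps that of Hist1h1e on the same strand. Hist1h4b went from 68.1%, 67.1% and 63.2% to 59.1%, 60.2% and 59.6% (adjusted p = 0.00834), and its model overlaps that of 4930558J22Rik on the opposite strand. In these 3 genes the libraries of the groups did not overlap and the call held without any single library. Hist1h4f went from 17.9%, 13.6% and 15.2% to 10.3%, 9.03% and 10.5% (adjusted p = 0.0147), and without unstimulated replicate 1, unstimulated replicate 3 or stimulated replicate 2 the adjusted p was 0.0618, 0.0592 and 0.0551. Hist1h2bb alone rose, from 54.1%, 56.7% and 48.6% to 57.4%, 59.3% and 62.5% (adjusted p = 0.0317), and its adjusted p without unstimulated replicate 3, stimulated replicate 2 or stimulated replicate 3 was 0.28, 0.0664 and 0.128. With a replicate block, 8 members passed (against 13.5% of autosomal genes): these 6, Hist2h3b (46.7% to 53.0% cast, adjusted p = 0.00223, against 0.102 without the block) and Hist1h2ak (adjusted p = 0.0292, against 0.0687).

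**Figure D5:**
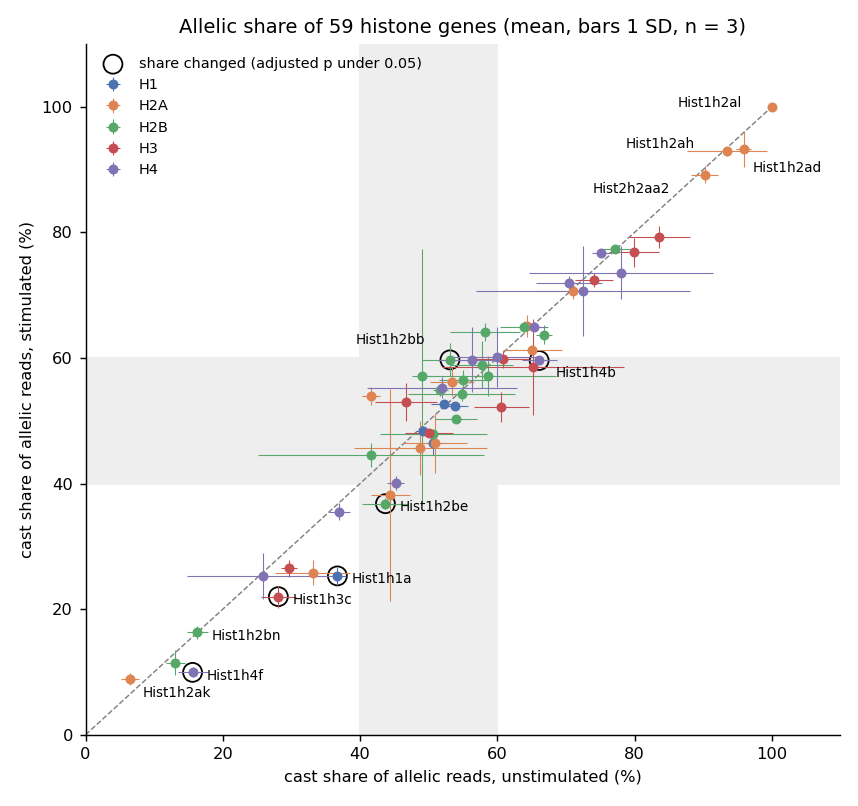
Mean cast share of allelic reads of each of the 59 members tested, unstimulated (horizontal) against stimulated (vertical), with bars of 1 SD over 3 libraries. The grey bands mark 40% to 60% and the dashed line equal shares. Most points lie along the line from Hist1h2ak near the lower left to Hist1h2al at 100%, and the 6 ringed genes are those whose share changed, of which Hist1h1a lies farthest below the line.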

How the data were processed

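The authors deposited 1 table of RPKM values with both alleles together and 1 of raw read counts split by allele, per the file headers. The submitters' processing notes name STAR 2.7.1a, featureCounts and mm10. How alleles were assigned, which gene lengths and strand setting were used and how multi-mapping reads were treated is not given in these sources. Gene positions and transcripts came from GENCODE M21 (67 members matched by identifier, 2 by symbol) and promoters from RefSeq (GRCm38.p6). RPKM was tested with limma 3.58.1 (trend) on log2(RPKM + 1) in R 4.3.3, for genes at an RPKM of 1 or more in at least 3 libraries. Allele counts were tested with edgeR 4.0.16 (1 term per library, allele within group, 30 allelic reads per group). DESeq2 1.42.0 was an alternative. P-values were adjusted by the Benjamini-Hochberg method within each table at a threshold of 0.05, and folds are ratios of mean RPKM. Scripts were tested on simulated data. Same-numbered libraries deviated together in allele ratios (correlations of 0.282, 0.298 and 0.182 over 9043 genes), so blocked values are given where a call changed. P-values measure the spread between biological replicates as labelled. Named members were the 4 highest of each class, the 6 largest rises and the falls, members opposite to their class, those with a changed share and the 8 most biased. From each gene list the 3 largest rises and falls, Slbp and Npat were named. The remaining named genes were chosen after their values were seen. The members and lists were chosen with earlier results of these data known.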

Additional observations from a re-analysis of the deposited data

How the results depend on the processing

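The number of members called higher was 59 with a pseudocount of 0.1, without a filter and with a replicate block, 62 with quantile normalisation, 57 of 61 by both count tools and 59 to 62 with 1 library left out. The number called lower was 2 except for 1 with quantile normalisation and 1 each by edgeR and DESeq2 on allele counts, where Hist2h2be was lost. Hist2h2be turned to 0.17 with quantile normalisation, and the cause was not tested. Among histone chaperones and import genes, the count called lower went from 4 to 2 by edgeR and 2 by DESeq2. Among variant histones outside the pattern it went from 4 to 2 without a filter, to 1 with median centring and to 2 with quantile normalisation, and it ran from 2 to 4 with 1 library left out. The other counts and summed levels stayed within 1.5 times or 1 SD (241 of 252 comparisons with an alternative). Called allele bias ran from 27 to 32 members unstimulated and from 28 to 34 stimulated, and changed shares from 4 to 8 members. In RPKM, same-numbered libraries did not deviate together (correlations of 0.00603, 0.0611 and 0.0908), and the replicate block left 59 members higher and 2 lower. The 30-read minimum limits calls in members with few base differences between the strains.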
